A study of Mus musculus with 10 samples.

Results

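The comparison described here is that of pro-B cells from control mice and from mice with an Mta2 knockout (KO), which the labels call Mta2_VavKO. It rests on 4 of the 10 libraries given for the series, 2 of genotype Control and 2 of genotype Mta2_VavKO, chosen by the labelled cell type and genotype. All mice were of strain C57BL/6, and the cells came from bone marrow and were sorted as B220+ IgM- CD43+. The Vav promoter is active throughout blood-forming cells, so the allele was not restricted to B cells. Whether the controls carried a Vav transgene, and the age, sex and litter of the animals, are not stated in the sources used here. The labels do not say that the libraries came from separate animals, so p-values measure the spread between libraries, which may be technical.

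Mta2 encodes a core protein of NuRD, the complex of nucleosome remodelling and histone deacetylation, which couples the histone deacetylases Hdac1 and Hdac2 with the chromatin-remodelling ATPases Chd3, Chd4 and Chd5. The complex is known mainly for restraining transcription at promoters and enhancers, and in lymphoid cells it associates with Ikaros family proteins. Pro-B cells are the marrow stage at which the immunoglobulin heavy chain genes are rearranged. At this stage the recombinase genes, the surrogate light chain genes and the interleukin-7 receptor are active under the factors Ebf1 and Pax5.

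The 4 libraries held 48860391 and 52127004 counts in controls 1 and 2 and 52011415 and 48988304 counts in KO libraries 1 and 2. Levels are CPM, counts per 1000000 counts of a library after scaling between the 4 libraries, and 3 counts corresponded to 0.0569 to 0.0626 CPM. Of 23420 genes in the files, 14060 passed the count filter and were tested. A first principal component with 73.2% of the variance placed the controls at -23.7 and -15.6 and the KO libraries at 13.8 and 25.4. The SD of log2 differences between libraries was 0.199 for the control pair and 0.239 for the KO pair, against 0.353 and 0.372 for pairs of unlike genotype. The sorted fraction expressed the genes of its label: Cd79a was at 399 and 357 CPM in the controls, Dntt at 511 and 585 CPM and Igll1 at 234 and 251 CPM. It also held RNA of other cells, since the plasmacytoid dendritic cell marker Siglech was at 1663 and 1762 CPM and the neutrophil gene S100a9 at 2534 and 2579 CPM in the controls. In bulk RNA, fewer cells of a type and less RNA per cell cannot be told apart.

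Mta2 (chromosome 19, 8941920 to 8952300, mm10) was at 461 and 396 CPM in the controls, against 172 and 174 CPM in the KO libraries. Both KO libraries lay well below both controls, and close to each other. The fall was of -1.31 as a log2 fold change (SE 0.09, adjusted p = 0.00113, edgeR quasi-likelihood test with Benjamini-Hochberg adjustment over all tested genes). Reads from every exon enter this count, including exons that a deletion would leave in place. In a fit of all 10 libraries with a shared spread, the same difference had an adjusted p of 0.212.

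Genes higher in the Mta2 KO outnumbered those lower. Of 14060 genes, 688 were higher (4.89%) and 168 were lower (1.19%), so that 6.09% of genes were called at an adjusted p below 0.05. Without adjustment, 3270 genes (23.3%) had a p below 0.05. The genes called higher had a median log2 fold change of 0.94, and 319 of them changed by at least 1 on that scale and 97 by at least 2. The genes called lower had a median of -0.70, with 57 at 1 or more in absolute value and 22 at 2 or more. Over all tested genes the median was -0.01. In all 856 called genes the KO libraries lay beyond the controls, as did 56% of all tested genes, 28% upward and 28% downward. With a single spread shared over all 10 libraries, 5 genes passed, all higher and all among the 856. Leaving out control 1 left 187 higher and 32 lower, and leaving out KO library 1 gave 1381 and 643, so the number of calls turned on single libraries while the excess of higher genes did not. The plot of change against level shows the called genes at every level of expression.

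**Figure D1:**
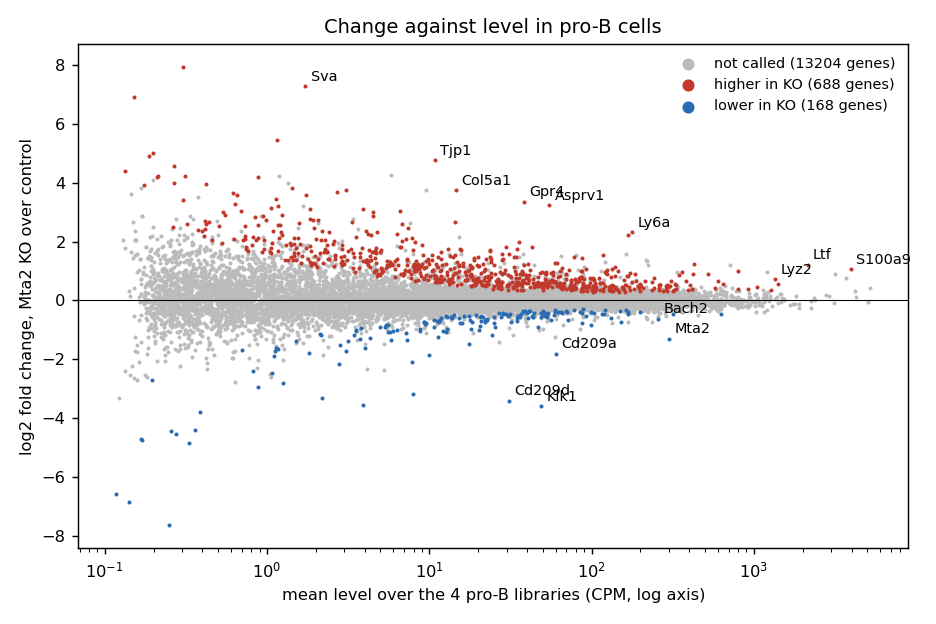
Each point is 1 of 14060 tested genes, with its mean level over the 4 pro-B libraries on a log axis (CPM) and its log2 fold change of Mta2 KO over control. Of the coloured genes, 688 lie above 0 and 168 below, and the largest changes are at low levels.

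The share of genes called differed with their level in the controls, which is also the base of the fold change. The count filter could be passed through the KO libraries alone. Genes almost absent from the controls could then enter only with a rise, so the shares by direction at low levels are no independent result. Of genes under 1 CPM in the controls, 5.67% were called higher and 0.567% lower, and of those at 1 to 10 CPM 7.02% and 1.28%. At 10 to 100 CPM, where 6663 of the tested genes lay, 4.44% were called higher and 1.52% lower. Of genes at 100 CPM or more, 3.19% were called higher and 0.759% lower, and the median log2 fold change of the called genes there was 0.48 and -0.46. By chromosome, the share called higher ran from 3.23% on chromosome 18 to 7.52% on chromosome 7, where 82 of 1090 tested genes were called higher and 18 lower.

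Among called genes with a mean of at least 2 CPM, the largest increase was in Tjp1, which encodes a scaffold of tight junctions (chromosome 7, 65296165 to 65371244). Tjp1 was at 0.667 and 0.853 CPM in the controls, against 19.2 and 22.5 CPM in the KO libraries (log2 fold change 4.77, SE 0.19, adjusted p = 0.000114). The KO levels were of the same order in both libraries and far above both controls. Col5a1, a collagen chain, was at 1.96 and 2.03 CPM and at 23.1 and 31.01 CPM (3.76, adjusted p = 0.000336). Gpr4, a proton-sensing receptor, was at 7.16 and 6.39 CPM and at 68.0 and 71.1 CPM (3.36, adjusted p = 2.79e-05). The groups were far apart in both genes, and in Gpr4 the 2 libraries of a genotype lay close together. Hspg2, the basement membrane proteoglycan perlecan, was at 0.162 and 0.607 CPM in controls, against 4.90 and 5.19 CPM in the KO (3.69, adjusted p = 0.0113). Asprv1, a retroviral-like aspartic protease of skin, was at 8.43 and 12.4 CPM and at 83.1 and 115 CPM (3.25, adjusted p = 0.0067). Its call was lost without control 1 (adjusted p = 0.0637).

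The other genes of the largest increases came from unrelated families. Entpd3, an ectonucleotidase, rose by 3.77 on the log2 scale and had the widest spread of them, at 3.01 and 8.51 CPM in the KO. Its adjusted p of 0.0409 became 0.358 without control 1 and 0.169 without control 2. Pvrl2, an adhesion molecule of the nectin family, went from 0.586 and 1.005 CPM to 5.80 and 8.17 CPM (3.12). Chit1, a chitinase of phagocytes, went from 1.29 and 1.59 CPM to 10.6 and 13.03 CPM (3.03). Ccdc80 (3.001), Mmp19, a matrix metalloproteinase (2.65), and Tgfa, a ligand of the epidermal growth factor receptor (2.62), rose as well, as did Cacnb3, a calcium channel subunit (2.66). Ptcra, the surrogate chain of the pre-T cell receptor, was at 0.546 and 0.531 CPM in controls, against 3.64 and 3.57 CPM in the KO (2.74). Their adjusted p lay between 0.00113 for Chit1 and Ccdc80 and 0.00551 for Cacnb3. Pnpla1 rose by 2.88 (adjusted p = 0.0239, and 0.097 without control 1).

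Below the 2 CPM limit, and chosen after its values were seen, Sva was almost without counts in the controls. This gene, known from seminal vesicle secretion, had 1 count in each control and 165 and 176 counts in the KO libraries. The ratio of 175 had a 95% counting interval of 48.0 to 1447, and the adjusted p was 0.00085. Such intervals leave out the spread between libraries. They may also be too narrow, because reads that carry no molecular identifier may stem from the same molecule.

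**Figure D2:**
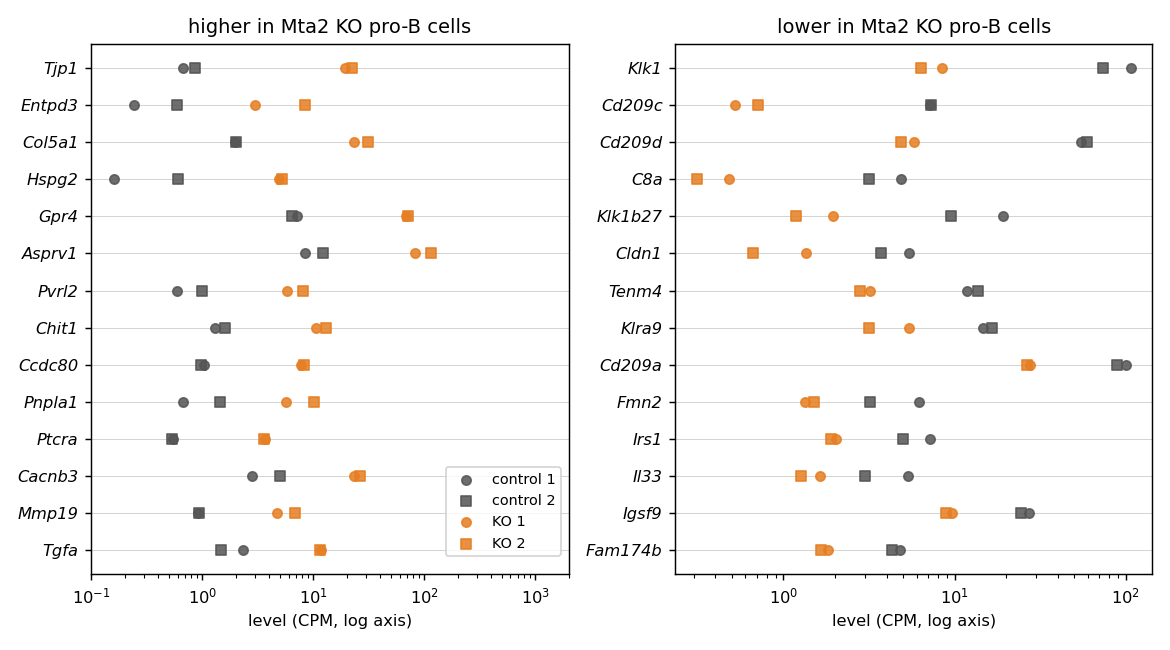
Points give the level (CPM, log axis) in each of the 4 pro-B libraries for the 14 genes with the largest called change in each direction and a mean of at least 2 CPM. The 28 genes were chosen so that both KO libraries (orange) lie on the same side of both controls (grey).

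Among called genes that fell and had a mean of at least 2 CPM, the 4 with the largest changes besides C8a, described further on, belonged to 2 gene families. Klk1, a tissue kallikrein protease, was at 107 and 73.8 CPM in controls, against 8.45 and 6.36 CPM in the KO (log2 fold change -3.60, SE 0.24, adjusted p = 0.00402). Klk1b27, a kallikrein gene of the same cluster, was at 19.0 and 9.50 CPM and at 1.95 and 1.19 CPM (-3.18, adjusted p = 0.0201). The Klk1b27 call was lost without KO library 1 (adjusted p = 0.2) or KO library 2 (0.324). Cd209d, a C-type lectin receptor of the family of DC-SIGN, was at 54.7 and 59.0 CPM and at 5.82 and 4.86 CPM (-3.41, SE 0.12, adjusted p = 4.75e-05). Cd209c went from 7.18 and 7.30 CPM to 0.521 and 0.709 CPM (-3.56, adjusted p = 0.00113), and Cd209a from 100.3 and 88.4 CPM to 27.4 and 26.4 CPM (-1.81, adjusted p = 0.000336). The fourth tested member, Cd209e, was at 1.66 and 2.39 CPM and at 0.733 and 0.2503 CPM and did not pass (adjusted p = 0.0623). Members of these families are similar in sequence, so reads could be assigned to the wrong copy.

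Counting only tested genes, Klk1 and Klk1b27 are neighbours over a span of 177 kb, and Cd209d and Cd209c over 75.0 kb. The windows around the annotated starts of these 2 pairs are shown because each pair fell together. They are taken from RefSeq (build GRCm38.p6), from 250 bases before to 50 after a transcript start, 5′ to 3′ on the gene's strand, with CG dinucleotides in capitals. Klk1 lies at chr7:44225110-44225409 (+), in a window 77 bases from the start in the counting annotation, and Klk1b27 at chr7:44052040-44052339 (+). Cd209d lies at chr8:3878450-3878749 (-) and Cd209c at chr8:3946814-3947113 (-).
Klk1: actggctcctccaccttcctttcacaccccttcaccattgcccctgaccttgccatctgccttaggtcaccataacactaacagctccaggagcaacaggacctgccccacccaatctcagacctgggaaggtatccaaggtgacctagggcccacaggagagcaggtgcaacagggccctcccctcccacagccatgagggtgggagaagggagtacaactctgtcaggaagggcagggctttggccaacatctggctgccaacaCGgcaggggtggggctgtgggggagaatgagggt
Klk1b27: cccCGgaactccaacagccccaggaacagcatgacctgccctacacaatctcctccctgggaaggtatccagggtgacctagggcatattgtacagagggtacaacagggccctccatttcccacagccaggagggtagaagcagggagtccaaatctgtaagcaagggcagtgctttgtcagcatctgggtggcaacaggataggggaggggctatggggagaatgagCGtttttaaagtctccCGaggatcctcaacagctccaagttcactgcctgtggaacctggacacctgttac
Cd209d: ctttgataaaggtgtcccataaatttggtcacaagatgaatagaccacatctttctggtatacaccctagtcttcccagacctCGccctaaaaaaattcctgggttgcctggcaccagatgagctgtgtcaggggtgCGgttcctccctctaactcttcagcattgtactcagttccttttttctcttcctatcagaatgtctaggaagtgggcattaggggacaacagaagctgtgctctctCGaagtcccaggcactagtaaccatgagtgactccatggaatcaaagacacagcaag
Cd209c: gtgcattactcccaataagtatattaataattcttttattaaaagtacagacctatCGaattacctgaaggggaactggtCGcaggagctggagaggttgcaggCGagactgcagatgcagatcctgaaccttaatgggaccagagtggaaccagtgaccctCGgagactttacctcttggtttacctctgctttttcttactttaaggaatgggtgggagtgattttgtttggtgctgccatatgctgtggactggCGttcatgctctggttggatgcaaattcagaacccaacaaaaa
These windows hold 1, 3, 3 and 5 CG dinucleotides in this order. Of 11102 windows of tested genes, whose median is 20, 99.3% hold at least 1 CG, 7.83% hold at most 3 and 12.9% hold at most 5. The longest run shared by the Klk1 and Klk1b27 windows is cctgggaaggtatcca, of 16 bases, and the Cd209d and Cd209c windows share at most 7 bases in a row.

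Other genes fell from moderate levels. C8a, a chain of complement component 8, went from 4.83 and 3.17 CPM to 0.482 and 0.313 CPM (-3.32, adjusted p = 0.00465). Tenm4, a teneurin, went from 11.7 and 13.7 CPM to 3.20 and 2.80 CPM (-2.08, adjusted p = 0.00163), and Igsf9 from 27.3 and 24.3 CPM to 9.60 and 8.84 CPM (-1.48, adjusted p = 0.00145). The groups did not overlap in any of the 3, which was a condition of their choice. Cldn1, a claudin of tight junctions (-2.17), the formin gene Fmn2 (-1.72), the insulin receptor substrate Irs1 (-1.63), the alarmin Il33 (-1.52) and Fam174b (-1.38) fell too, but their calls were lost without control 1 (adjusted p = 0.0814 for Irs1 to 0.251 for Il33). Klra9, a receptor of the Ly49 family with overlapping copies, fell by 1.85 and lost its call without control 1 (0.0816) or control 2 (0.0544).

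The most abundant genes that passed changed less than these. Among those higher were the neutrophil genes S100a9 (controls 2534 and 2579 CPM, KO 4226 and 6479 CPM) and Ltf (1330 and 1252 CPM, 2385 and 3608 CPM). Lyz2, the myeloid lysozyme, was at 1025 and 1023 CPM and at 1723 and 1660 CPM (0.72, adjusted p = 0.00374). Grn (0.56), Lcp1 (0.34) and Flna (0.45) rose from about the same range of levels. Apart from Mta2, the abundant genes that fell were Itga4 (-0.46), Fgr (-0.44), Bach2 (-0.62), Padi2 (-0.40) and Vps13b (-0.38). Itga4 encodes the alpha chain of VLA-4, which holds precursors on marrow stroma. Bach2 is a transcription factor of B lymphocytes, and it was at 340 and 287 CPM in controls, against 224 and 182 CPM in the KO. Of these abundant genes, Mta2 and Lyz2 kept their calls without each library in turn. The others lost them without control 1, with adjusted p of 0.0688 for Padi2 to 0.326 for S100a9. Without control 2, S100a9 (0.194), Ltf (0.177), Lcp1 (0.144), Itga4 (0.105), Flna (0.0876), Padi2 (0.0697) and Vps13b (0.0535) lost theirs too, and without KO library 2 so did Lcp1 (0.0898), Flna (0.0548) and Itga4 (0.0526).

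Called genes next to each other along a chromosome, counting only tested genes, formed 70 runs with 149 genes. Of these runs 64 went in 1 direction, 6 held 3 or more genes and the longest held 4. Among all calls 80.4% were higher, and how many such runs a random order of genes would give was not tested. Among the genes with a mean of at least 2 CPM already described, several lay in such runs. Chit1 lay beside Chi3l1, a chitinase-like gene (controls 58.5 and 61.6 CPM, KO 155 and 197 CPM, 1.55), and Pvrl2 beside Bcam, an adhesion molecule (2.05). Cacnb3 lay beside the adenylyl cyclase gene Adcy6 (1.16) and Ptcra beside Cnpy3 (0.32), while Igsf9 and its neighbour Slamf9 (-1.17) both fell. The Cnpy3 and Bcam calls were lost without control 1 (adjusted p = 0.234 and 0.124) or control 2 (0.0974 and 0.0679), and that of Cnpy3 also without KO library 2 (0.137).

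The same stretch of chromosome 7 that holds Gpr4, Pvrl2 and Bcam also holds Klc3, Apoe and Apoc1, which were chosen after their values were seen. Only called genes of the stretch are named here. Apoe and Apoc1 formed a run and Pvrl2 and Bcam another, with tested genes that were not called between them. Apoc1 rose by 2.71 (adjusted p = 0.0291, edgeR), and by 2.32 to 3.20 without each library. Klc3, a kinesin light chain, was at 1.98 and 2.33 CPM and at 10.1 and 10.7 CPM (2.27). Apoe, the apolipoprotein, was at 44.5 and 72.4 CPM and at 288 and 262 CPM (2.23, adjusted p = 0.0193). Its call was lost without KO library 1 (0.302) or KO library 2 (0.395). On chromosome 19, the fatty acid desaturase genes Fads2 (0.60) and Fads3 (0.69) rose with their neighbours Best1 (2.14) and Rab3il1 (1.12). Without control 1 the adjusted p was 0.0556 for Best1, 0.0831 for Fads3 and 0.0955 for Rab3il1.

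Of the 15 NuRD genes, Mta2 fell, 1 rose and 13 did not pass (median log2 fold change -0.01, as over all genes). Among all tested genes, 4.89% were called higher and 1.19% lower. The NuRD gene that rose was Chd3, a remodelling ATPase of the complex, at 268 and 275 CPM in controls, against 399 and 387 CPM in the KO (0.53, adjusted p = 0.00754). The groups did not overlap, and without control 1 the adjusted p was 0.0544. The paralogues of Mta2 did not pass. Mta1 was at 151 and 157 CPM and at 143 and 137 CPM (adjusted p = 0.276), and Mta3 at 118 and 120 CPM and at 164 and 134 CPM (0.33, adjusted p = 0.11). Chd4, the most abundant ATPase by counts, was at 670 and 727 CPM and at 706 and 688 CPM. Of the 20 polycomb genes 1 rose, Pcgf2 (0.72, adjusted p = 0.022, and 0.119 without control 1), with a median of -0.09.

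Among genes that define the pro-B stage, 1 of 18 passed, Kit, the receptor for stem cell factor, where 6.09% of all tested genes were called. Kit was at 39.8 and 46.3 CPM in controls, against 69.1 and 67.9 CPM in the KO (0.67, SE 0.09, adjusted p = 0.0101). The median of the list was -0.19. This count turned on KO library 1: without it 2 genes of the list were higher and 9 lower by edgeR (median -0.40), while without KO library 2 there were 2 higher and 0 lower. With the title number as a replicate block 1 was higher and 3 were lower. Pax5, the B lineage commitment factor, was at 117 and 94.4 CPM and at 87.1 and 55.8 CPM (adjusted p = 0.264), and Ebf1 at 145 and 150 CPM and at 127 and 101 CPM (adjusted p = 0.108). In Pax5 and Ebf1 the KO libraries lay below the controls but KO library 2 was well below KO library 1. Both passed as lower when KO library 1 was left out (Pax5 -0.92, adjusted p = 7.5e-05, Ebf1 -0.54, adjusted p = 0.000303, edgeR), as did Ebf1 with DESeq2 (0.0388) and Pax5 with the replicate block (0.0383). Rag1, a recombinase gene, was at 228 and 239 CPM in controls, against 270 and 170 CPM in the KO, on both sides of the controls. Rag1 passed as lower without KO library 1 (-0.45, adjusted p = 0.00208, edgeR), and so did Rag2 (0.000868) and the surrogate light chain genes Igll1 (0.00196) and Vpreb1 (0.04). Dntt, which adds bases at rearranging joints, was at 511 and 585 CPM and at 861 and 682 CPM (0.49, adjusted p = 0.0715). The list of pre-B cell receptor genes with the surrogate light chain (16 genes, median -0.13), the V(D)J recombination list (13 genes, median -0.19) and the interleukin-7 receptor list (19 genes, median 0.09) had 0 genes called by edgeR or limma-voom. At an unadjusted p below 0.05 edgeR had 3, 4 and 4 of their genes, in this order, against 23.3% of all tested genes. DESeq2 called 1 lower, then 1 higher and 2 lower, then 1 higher. Without KO library 1 some genes of each list passed, and the medians were -0.34, -0.25 and 0.11 in this order. That fit called more of all tested genes too, so its count in any list does not compare with the shares of the main fit.

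Of 27 B lineage transcription factors, 2 fell, 0 rose and 25 did not pass (median -0.10), where 6.09% of all tested genes were called. Without control 1 the counts were 0 and 0, and without KO library 1 they were 2 higher and 8 lower. Besides Bach2, the gene that fell was Pou2f1, the octamer factor Oct-1, at 87.3 and 86.7 CPM in controls, against 71.4 and 66.8 CPM in the KO (-0.33, adjusted p = 0.0445). Pou2f1 overlaps the T cell gene Cd247 on the opposite strand, and its call was lost without control 1 (0.183), control 2 (0.0986) or KO library 2 (0.134). Of 20 mature B cell genes, the ectoenzyme gene Cd38 rose (0.57, adjusted p = 0.0137) and Cd22, an inhibitory coreceptor, fell. Cd22 was at 143 and 111 CPM in controls, against 75.2 and 65.9 CPM in the KO (-0.85, adjusted p = 0.0193). The Cd38 call was lost without control 1 (0.0709).

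The cell cycle lists had 0 genes called by edgeR and negative values throughout. All 22 S phase genes (median -0.26) and all 20 G2 and M phase genes (median -0.16) had a log2 fold change below 0. Where 23.3% of all tested genes had an unadjusted p below 0.05, 15 of the S phase genes did. DESeq2 called 3 of them lower, limma-voom 0, edgeR with the replicate block 4, and edgeR without KO library 1 8. Of the G2 and M phase genes 1 had an unadjusted p below 0.05, DESeq2 and limma-voom called 0, and edgeR called 1 lower without KO library 1. Control 1 was the highest library in these lists, with summed levels of 3934, 3299, 3145 and 2870 CPM for S phase in control 1, control 2, KO 1 and KO 2, and of 7989, 6630, 6658 and 6077 CPM for G2 and M phase. For G2 and M phase, KO library 1 thus lay above control 2. Pcna, the sliding clamp of DNA polymerase, was at 321 and 262 CPM and at 241 and 205 CPM (adjusted p = 0.122).

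Cell death and signalling lists held single called genes, where 6.09% of all tested genes were called. Bbc3, the BH3-only protein Puma, was the 1 of 15 p53 targets and the 1 of 16 BCL2 family genes to rise, from 10.6 and 13.01 CPM to 23.0 and 20.4 CPM (0.88, adjusted p = 0.0152, and 0.06 without control 1). The p53 target Cdkn1a was at 24.8 and 24.9 CPM and at 25.99 and 21.4 CPM. Of 17 immediate early genes Ier3 rose (1.19, adjusted p = 0.0311) and Dusp1, a phosphatase of MAP kinases, fell (-0.68, adjusted p = 0.0216). Without control 1 their adjusted p were 0.16 and 0.0535, and without control 2 that of Dusp1 was 0.0633. Leaving out KO library 1 gave 6 immediate early genes higher and 1 lower. Of 13 Notch pathway genes Ptcra alone passed, and Notch1 was at 423 and 502 CPM and at 467 and 479 CPM. The interferon response list had 0 of 20 called by edgeR, DESeq2 and limma-voom and 0 at an unadjusted p below 0.05, with a median of 0.24. Of 26 cytokine and growth factor receptors Kit rose and Il5ra fell (median 0.21). Leaving out KO library 1 gave 11 higher and 1 lower.

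Of 20 genes of T lymphocytes, 4 were higher and 1 was lower, with a list median of 0.31, where 4.89% and 1.19% of all tested genes were called. The list was chosen with earlier results of these data known, so the shares are no independent test of it. Cd6, a coreceptor of T cells, was at 5.54 and 6.43 CPM in controls, against 19.3 and 20.9 CPM in the KO (1.75, adjusted p = 0.00145). Lat, the adaptor of the T cell receptor, was at 23.2 and 23.1 CPM and at 56.2 and 50.03 CPM (1.20), and Cd8a at 33.7 and 32.7 CPM and at 65.5 and 65.0 CPM (0.97), with the same adjusted p. The libraries of a genotype were close together in these 3 genes, and the calls held without each library in turn. Cd3e rose by 1.07 (adjusted p = 0.0162, and 0.0998 without control 1). Cd28, a costimulatory receptor, fell from 33.4 and 32.2 CPM to 23.0 and 21.4 CPM (-0.56, adjusted p = 0.0153, and 0.0797 without control 1). Other T cell genes did not pass: Cd4 was at 244 and 315 CPM and at 332 and 303 CPM, and Bcl11b, a factor of T lineage commitment, at 3.20 and 3.22 CPM and at 4.67 and 4.15 CPM (adjusted p = 0.231). Summed over the list the levels were 802 and 874 CPM in controls, against 1109 and 923 CPM in the KO. Which cells of the sorted fraction held the RNA of these genes was not tested.

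Cell junction genes, of epithelial background, also held several calls. Of 16 tested, 5 rose and 1 fell, with a list median of 0.30, where 4.89% and 1.19% of all tested genes were called. That list too was chosen with earlier results of these data known, so the shares are no independent test of it. Beside Tjp1, the desmosomal genes Jup, plakoglobin (12.2 and 15.7 CPM, 32.5 and 36.1 CPM, 1.30, adjusted p = 0.00438), and Dsp, desmoplakin (1.93, adjusted p = 0.0174), rose. Cdh1, E-cadherin, was at 127 and 109 CPM in controls, against 193 and 229 CPM in the KO (0.84, adjusted p = 0.00992). F11r, the junctional adhesion molecule A, rose by 2.31 (adjusted p = 0.0349, and 0.247 and 0.0941 without control 1 and control 2). Tjp3 (0.34) did not pass, and Cldn1 fell as given above. Of 19 homing and adhesion receptors Cxcr3 (0.50) and Itgam (0.66) rose and Itga4 fell, and Cxcr4 was at 421 and 363 CPM and at 325 and 335 CPM (adjusted p = 0.147). The Cxcr3 call was lost without control 2 (adjusted p = 0.0579), and that of Itgam without control 1 (0.143) or control 2 (0.0535). In this list 5 genes were higher and 3 lower without KO library 1.

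Of 16 stem and progenitor markers, Kit and Ly6a rose and 14 did not pass (median 0.16), where 4.89% of all tested genes were called higher. Ly6a, the surface protein Sca-1, was at 44.0 and 74.4 CPM in controls, against 329 and 263 CPM in the KO (2.32, SE 0.30, adjusted p = 0.0277). Both KO libraries stood well above the controls, but the call was lost without KO library 1 (0.332) or KO library 2 (0.417). Its neighbour Ly6c1, chosen after its values were seen, rose by 2.15 from 0.263 and 0.341 CPM (adjusted p = 0.0216, and 0.129 and 0.0533 without control 1 and control 2). The progenitor genes Cd34 (1.28, adjusted p = 0.162) and Meis1 (-0.01) did not pass. Of 12 MHC class II genes, those of the accessory chains H2-Oa (34.8 and 33.1 CPM, 61.5 and 57.6 CPM, 0.81, adjusted p = 0.00325) and H2-DMb2 (0.72, adjusted p = 0.0226) rose, while H2-Ab1 and Cd74 were at 0.05 and 0.12. Without control 1 the adjusted p of H2-DMb2 was 0.117, and without control 2 it was 0.0583. Of 16 aldehyde dehydrogenases Aldh3b1 rose from 60.2 and 58.9 CPM to 118 and 131 CPM (1.07, adjusted p = 0.00145), and Aldh2 by 0.40 (adjusted p = 0.0428, and 0.189, 0.122 and 0.0743 without control 1, control 2 and KO library 2).

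**Figure D3:**
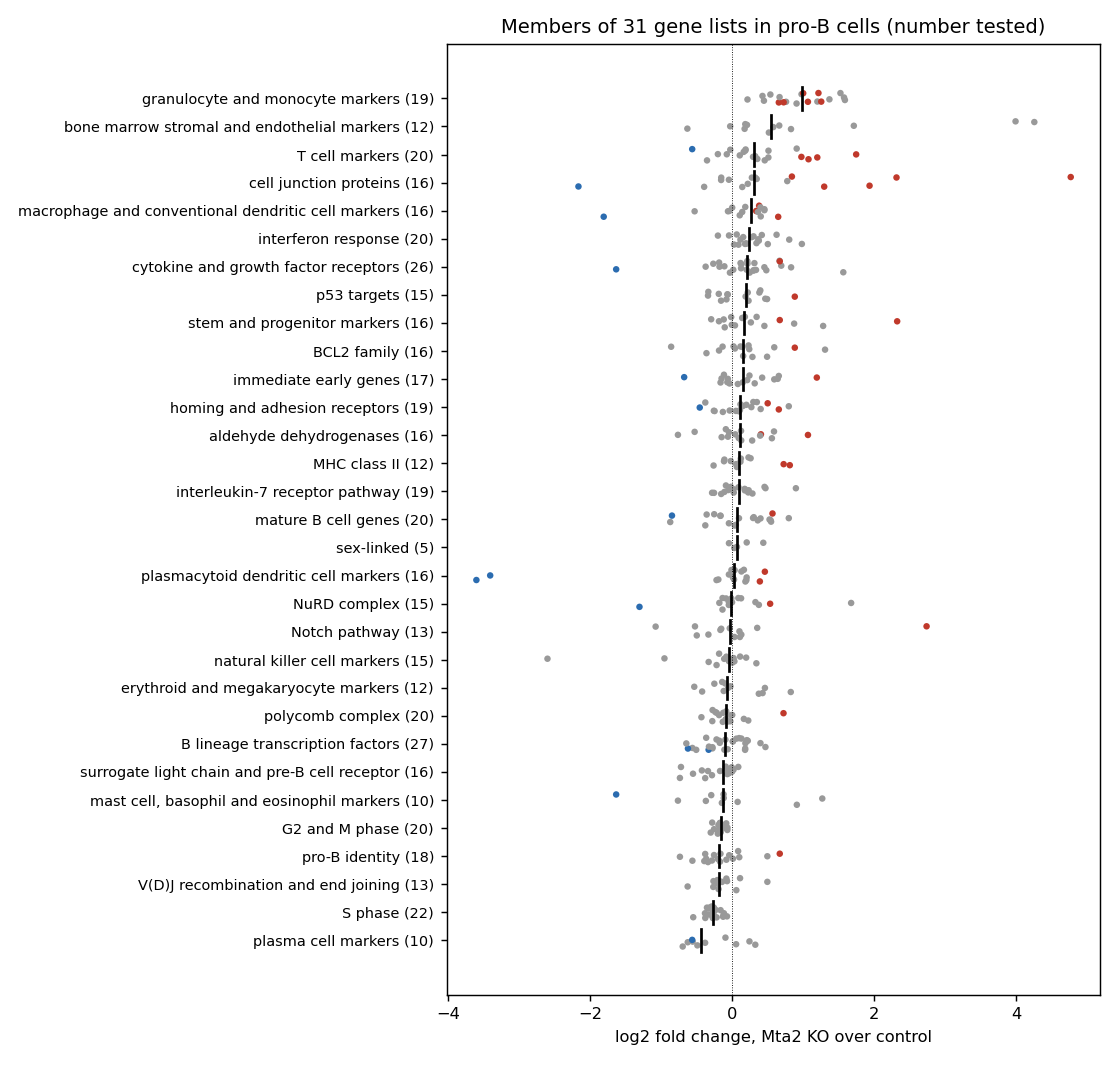
Each point is a tested gene of 1 of 31 lists, placed by its log2 fold change of Mta2 KO over control, with called genes in red (higher) and blue (lower) and the list median as a black bar. The granulocyte and monocyte list has the highest median, 0.98, and the 2 cell cycle lists have no gene above 0.

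Markers of other cell types in the gate moved unequally. All 19 granulocyte and monocyte markers had a log2 fold change above 0, with a median of 0.98. By edgeR 6 of them passed, where 4.89% of all tested genes were called higher. All 19 had an unadjusted p below 0.05, against 23.3% of all tested genes. DESeq2 called 14 higher, limma-voom 5, edgeR with the replicate block 9 and edgeR with no robust estimation 12. This list was chosen with earlier results of these data known. The list had summed levels of 12867 and 12783 CPM in the controls and of 20070 and 29048 CPM in KO libraries 1 and 2, so KO library 2 held the most. Cebpe, a factor of late granulocyte differentiation, was at 24.8 and 23.4 CPM and at 51.4 and 63.4 CPM (1.25, adjusted p = 0.00248). Camp, a granule peptide, rose by 0.9996 and Itgam, a myeloid integrin, by 0.66. The Camp call was lost without control 1 (adjusted p = 0.252) or control 2 (0.154). The granule proteases were spread most: Prtn3 was at 76.1 and 87.8 CPM in controls, against 134 and 359 CPM in the KO (adjusted p = 0.197), and Elane at 119 and 122 CPM and at 217 and 407 CPM (adjusted p = 0.113). Without KO library 2 the median was 0.67 with 15 genes called, without KO library 1 it was 1.23 with 16 called, and without control 1 it was 0.99 with 2 called. Whether the share of granulocytes set the other changes was not tested.

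Over all tested genes, 4.89% were called higher and 1.19% lower. Macrophage and conventional dendritic cell markers had 3 of 16 higher, Clec10a (0.65), Itgax (0.38) and Cd68 (0.34), and Cd209a lower. These 3 increases were lost without control 1 (adjusted p = 0.22 for Itgax to 0.251 for Cd68) or control 2 (0.0779 for Cd68 to 0.0827 for Itgax). Plasmacytoid dendritic cell markers had summed levels of 10611 and 11226 CPM in controls and of 11231 and 12032 CPM in the KO, against 6137 and 5608 CPM and 5898 and 4973 CPM for the pro-B list. Of the 16 plasmacytoid markers Cox6a2 (0.46) and Ly6d (0.39) rose, Klk1 and Cd209d fell and 12 did not pass (median 0.03). Siglech (0.16) and Tcf4 (0.13), a receptor and a factor that define these cells, did not pass. The 12 that did not pass lay between -0.22 (Spib) and 0.20 (Tlr7), while Klk1 and Cd209d fell by more than 3. Without control 1 the adjusted p of Cox6a2 was 0.0527 and that of Ly6d 0.141, and without control 2 they were 0.0624 and 0.11. Cox6a2 overlaps Itgad, which rose by 0.54, on the opposite strand.

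**Figure D4:**
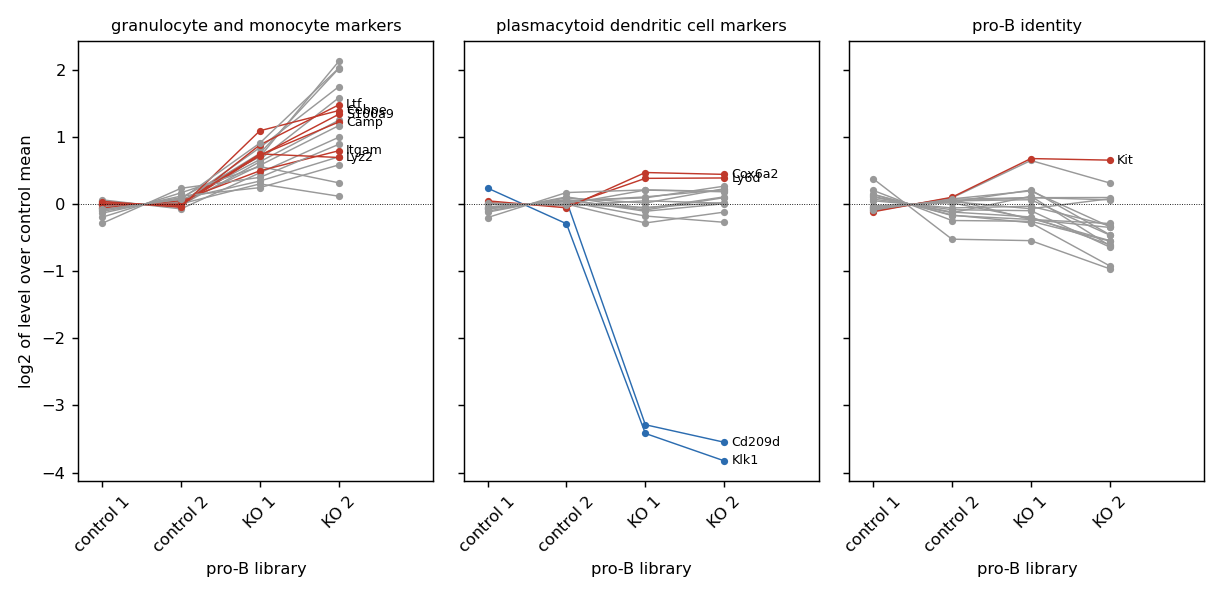
Each line is 1 gene, with the log2 of its level over the control mean in the 4 pro-B libraries, in grey where it was not called, red where higher and blue where lower. Granulocyte and monocyte genes lie above 0 in both KO libraries, while Klk1 and Cd209d are the only plasmacytoid dendritic cell markers of those plotted that lie more than 3 below it.

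Natural killer cell markers had 0 of 15 called by edgeR (median -0.05), where 6.09% of all tested genes were called. At an unadjusted p below 0.05 there were 3, against 23.3% of all tested genes. DESeq2 called 1 of the markers higher and 1 lower, and limma-voom 0. Without KO library 1, 1 was higher and 10 were lower (median -0.44), and without KO library 2, 2 were higher and 1 lower (median 0.18). Ncr1, a receptor of natural killer cells, was at 64.6 and 68.4 CPM in controls, against 48.0 and 20.5 CPM in the KO. Erythroid and megakaryocyte markers had 0 of 12 called by edgeR, DESeq2 and limma-voom (median -0.08) and 0 at an unadjusted p below 0.05. Without KO library 1, 1 of them was higher and 6 were lower (median -0.93). Car1, an erythroid carbonic anhydrase, went from 10.3 and 13.6 CPM to 17.5 CPM in KO library 1 and 5.96 CPM in KO library 2. Mast cell, basophil and eosinophil markers had 1 of 10, Il5ra, which fell from 2.10 and 1.46 CPM to 0.559 and 0.584 CPM (-1.64, adjusted p = 0.0373, and 0.233 without control 1). Stromal and endothelial markers had 0 of 12 called by edgeR and by limma-voom, with a median of 0.55. At an unadjusted p below 0.05 there were 5, DESeq2 called 4 higher, and edgeR called 2 higher with the replicate block and 1 with no robust estimation. In that list Col1a1, a collagen chain of bone cells, was at 0.526 and 0.626 CPM in controls, against 0.675 and 21.5 CPM in the KO, so it was high in KO library 2 alone. The stromal chemokine Cxcl12 was at 0.438 to 1.42 CPM over the 4 libraries. Plasma cell markers had a median of -0.44 with Cd28 lower, and Igj, the joining chain, was highest in control 1 (1850.1 CPM, against 756 to 1189.8 CPM in the others). All 4 libraries had Y-linked RNA, with Ddx3y at 69.2 to 86.8 CPM, and Xist at 0.322 to 0.667 CPM.

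The genes called in pro-B cells were then looked up in the 6 small pre-B libraries of the series, a later stage sorted from other samples and fitted on their own. Of the 688 genes higher in pro-B KO, 535 were tested there, and 468 of them (87.5%) were above 0, with a median log2 fold change of 0.72. Of the 168 lower genes, 140 were tested and 117 (83.6%) were below 0, with a median of -0.58. Of the genes not called in pro-B cells, 48.9% were above 0 (median -0.01). Over fits that left out each small pre-B library in turn, the shares ran from 83.9% to 87.9% and from 82.7% to 85.9%. The small pre-B count filter could be passed through the KO libraries alone, so genes almost absent from the controls could enter only with a rise. The fit of all 10 libraries tested 683 of the higher genes, with 84.6% above 0 in small pre-B cells. It tested 163 of the lower genes, with 81.0% below 0, and 49.6% of the genes not called were above 0. No gene was called in the small pre-B fit by edgeR, in either direction (0% of 12478), while 2166 had an unadjusted p below 0.05 and DESeq2 called 468 higher and 287 lower. Xist, expressed from an inactive X, reached 2418 CPM in KO library 1 and 2827 CPM in KO library 2 of that stage, against 1.63 to 30.4 CPM in the other 4, so the sex-linked RNA of those libraries was not balanced.

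Of 846 genes called in pro-B cells and tested for a different effect in the 2 cell types, 0 passed with edgeR, 142 had an unadjusted p below 0.05 and 26 passed with DESeq2. Hspg2 was at log2 fold changes of 3.69 in pro-B and 3.65 in small pre-B cells, and Tjp1 at 4.77 and 3.04. Gpr4 was at 3.36 and -0.98, with 0.593 to 2.36 CPM in the small pre-B controls, and Tenm4 at -2.08 and 1.78. The difference of the effects did not pass for either of these genes (adjusted p = 0.43). Sva had 0 counts in the small pre-B controls and was at 6.87 to 8.52 CPM in the small pre-B KO libraries.

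**Figure D5:**
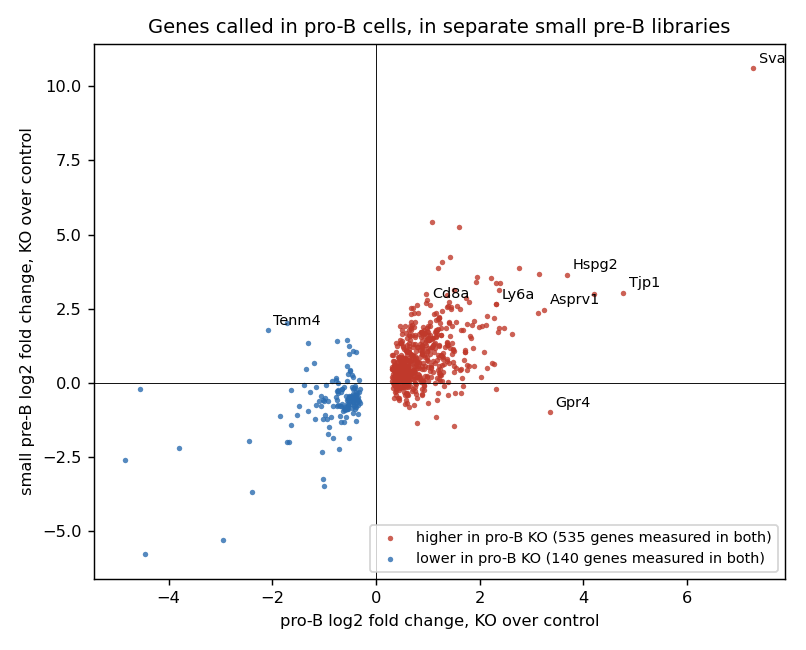
Each point is a gene called in pro-B cells, with its log2 fold change of Mta2 KO over control in pro-B cells and in the separate small pre-B libraries. Of 535 genes higher in pro-B KO, 468 lie above 0 on the small pre-B axis, and of 140 lower genes 117 lie below it.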

How the data were processed

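RNA was sequenced from sorted cells, and the authors deposited raw counts per gene, 1 file per library, with no normalization. Per the file headers, reads were counted over exons with featureCounts 1.4.3-p1, an mm10 annotation and no strand option, although the labels name a stranded kit, so reads of genes overlapping on opposite strands may be misassigned. CASAVA 1.82, STAR and mm9 appear in the submitters' processing notes, and positions are given in mm10 as in the files. The 4 pro-B libraries were fitted on their own with edgeR 4.0.16 (R 4.3.3), with genes kept by filterByExpr (minimum count 10, minimum total 15), scaling by trimmed mean of M values and the robust quasi-likelihood F-test. The Benjamini-Hochberg adjustment covered all tested genes, with a threshold of 0.05. Depth was 48860391 to 52127004 counts. Ratios of counts carry exact binomial intervals (95%).

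The genes and the 31 lists (496 genes) were chosen with earlier results of these data known. Named genes were Mta2, the 14 called genes that changed most in each direction (mean of at least 2 CPM, libraries apart, no predicted or small RNA genes), the 6 most abundant called genes each way, up to 4 called members of each list, 8 early B cell genes and neighbours in runs. Other genes were named after their values were seen. List symbols were matched to older ones for 5 genes. Alternatives were scaling in edgeR by DESeq2 size factors or by the upper quartile, no robust estimation, the DESeq2 1.42.0 Wald test, limma-voom (limma 3.58.1), no count filter, a 1 CPM filter, all 10 libraries in 1 fit, a replicate block and leaving out each library. Promoters were matched for 76.5% of the higher genes, too few for a comparison of promoter composition.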

Additional observations from a re-analysis of the deposited data

How the results depend on the processing

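The 4 pro-B libraries give few degrees of freedom, and the number of called genes followed the choice of test and of library more than the direction of the genes did. Against 688 higher and 168 lower, the DESeq2 Wald test called 1112 and 376 and a limit of 1 on the absolute log2 fold change left 319 and 57. The fit of all 10 libraries called 5 and 0, with 913 genes at an unadjusted p below 0.05, and without a count filter 316 genes were lower. Leaving out each library gave 187 to 1381 higher and 32 to 643 lower genes, with 210 (without control 1) to 825 (without KO library 1) of the 856 calls shared. DESeq2 shared 843 of them and limma-voom 760. The share of higher genes among the calls was 80.4%, and 68.2% to 85.4% over the fits without 1 library. It was 74.7% with DESeq2, and other scalings moved it to 78.4% and 80.5%. Mta2 was at -1.31 with an adjusted p of 0.212 in the fit of all 10 libraries, and between -1.42 and -1.19 without each library. Among 83 named genes, 73 lost their calls in the fit of all 10 libraries, 39 without control 1 and 23 without control 2. The 83 include Igll1, Vpreb1, Rag1, Rag2, Pax5, Ebf1, Il7r and Myc, which had no call to lose. Of the called genes among the 83, only Tjp1 (adjusted p = 0.00885) and Aldh3b1 (0.0404) kept their calls in the fit of all 10 libraries. Outside the 83, Sva, Klc3 and Olfml2b passed in that edgeR fit too (adjusted p = 0.00851 for each). Igll1 (-0.46 to 0.072 without each library), Rag1 (-0.45 to 0.22), Rag2 (-0.62 to 0.12) and Vpreb1 (-0.33 to 0.20), not called with all 4 libraries, were above 0 without KO library 2, and Vpreb1 (0.040) also without control 2. Without KO library 1 these 4 and Pax5 and Ebf1 were called lower. In small pre-B cells the fit of all 10 libraries called 267 higher and 161 lower and DESeq2 468 and 287, against 0 and 0. Leaving out each library gave 0 to 235 higher and 0 to 99 lower, with 2 and 3 without control 3. The difference between the cell types passed for 26 genes with DESeq2. The causes were not tested. With the number in the titles as a replicate block, 726 genes were higher and 237 lower in pro-B cells, 710 of the 856 calls were shared and the small pre-B counts stayed at 0. The deviations of same-numbered libraries correlated at 0.0615 in pro-B cells and at 0.0410 to 0.179 in small pre-B cells, and whether the numbers mark a shared litter or batch is not stated in the sources used here.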
